A study of Mus musculus with 26 samples.

Results

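The mitochondrially encoded transcripts were taken as every gene of the annotated liver count table whose symbol starts with mt-, and the rule found 37 of 54532 genes. They comprise 13 mRNAs, 2 rRNAs and 22 tRNAs, which is the whole gene set of mouse mitochondrial DNA. Reads were counted for 36 of the 37, and 33 passed the filter on low counts and were tested. The study measured liver RNA of 26 C57BL/6 mice given benoxacor, a herbicide safener added to metolachlor products, by oral gavage on 3 consecutive days, with tissue taken 24 hours after the last dose. The doses were 0 mg/kg in 5 mice, 0.5 mg/kg in 5 mice, 5 mg/kg in 8 mice and 50 mg/kg in 8 mice, and the labels do not name the vehicle or the sex. All mice had been acclimatised at 4 to 8 weeks with mixed bedding to even out their gut bacteria. Mouse numbers fall into 2 runs, 619 to 632 with 1, 2, 4 and 4 mice at 0, 0.5, 5 and 50 mg/kg, and 601 to 616 with 4, 3, 4 and 4 mice. The labels do not say what a run is, and within each run the numbers rise with dose, so dose and order of numbering cannot be told apart.

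Mitochondrial DNA is a small circle whose 2 strands are each transcribed into long polycistronic RNAs by the polymerase Polrmt with the factors Tfam and Tfb2m. The tRNAs that lie between the mRNAs and rRNAs are cut out, which frees the other transcripts. The mRNAs encode subunits of respiratory complexes I, III, IV and V, and hepatocytes carry many mitochondria, which serve fatty acid oxidation, the urea cycle and the making of ATP. All mRNAs but mt-Nd6 have the sense of the plus strand of the reference, as do both rRNAs.

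Total counts per library ran from 5433074 to 9088626 with a median of 7105531, and no pair of libraries of the same dose agreed within counting noise. All 10 hepatocyte markers had reads, with a summed level of 48537 to 134737 CPM (reads scaled to a common library total) in the 26 mice. Markers of adrenal steroid cells summed to 4492 CPM in 5 mg/kg replicate 8, against at most 18.4 CPM in every other library. Adipocyte markers summed to 685 CPM in the same library and to 420 CPM in 5 mg/kg replicate 6, against at most 27.4 CPM elsewhere. Fewer hepatocytes or mitochondria and less RNA in each cannot be told apart in such bulk samples. Whether the library kit selected poly(A) RNA or removed rRNA, and whether counting used strand, is not given in the sources used here. Reads of overlapping genes on opposite strands, such as the last 14 bases of mt-Nd5 and mt-Nd6, therefore cannot be told apart.

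Over all 26 mice the mitochondrial genes took 10737601 reads, which is 5.60% of all reads counted. The mRNAs held 95.1% of these mitochondrial reads, the rRNAs 3.69% and the tRNAs 1.16%. mt-Co1, the catalytic subunit of cytochrome c oxidase (complex IV), alone held 40.4% of mitochondrial reads and ranked 2nd among all genes of the liver table. mt-Cytb, the cytochrome b of complex III, held 19.5% and ranked 7th. The complex I subunits mt-Nd2, mt-Nd1, mt-Nd4 and mt-Nd5 followed with 8.97%, 8.25%, 7.70% and 6.86%, and mt-Nd6 held 2.72%. The rRNA of the large mitochondrial ribosomal subunit, mt-Rnr2, held 2.33% and that of the small subunit, mt-Rnr1, 1.36%.

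Per kilobase of transcript, mt-Co1 and then mt-Cytb led the mRNAs in every mouse. The median level over the 26 mice was 14039 CPM per kb for mt-Co1, 9247 for mt-Cytb, 4683 for mt-Nd2, 4568 for mt-Nd1, 2947 for mt-Nd4, 2836 for mt-Nd6 and 2027 for mt-Nd5. mt-Co1 was above mt-Cytb, mt-Cytb above mt-Nd2, mt-Nd1 above mt-Nd4 and mt-Nd6 above mt-Nd5 in 26 of 26 mice, although the ranges of these neighbours over mice overlapped. The order of mt-Nd2 and mt-Nd1, and that of mt-Nd4 and mt-Nd6, held in only 16 of 26 mice each, so these neighbours did not differ beyond their spread. The other 6 mRNAs lay far below. Medians were 176 CPM per kb for mt-Nd3, 132 for mt-Co3, 129 for mt-Atp6, 93.9 for mt-Co2, 44.4 for mt-Nd4l and 22.3 for mt-Atp8. mt-Nd5 reached no less than 1131 CPM per kb in any mouse and mt-Nd3 no more than 340, the one gap between neighbours in the order where the ranges did not overlap. The highest mice of mt-Atp6, mt-Nd4l and mt-Co3 had 984, 491 and 399 CPM per kb, above the highest of mt-Nd3 but below the lowest of mt-Nd5.

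**Figure D1:**
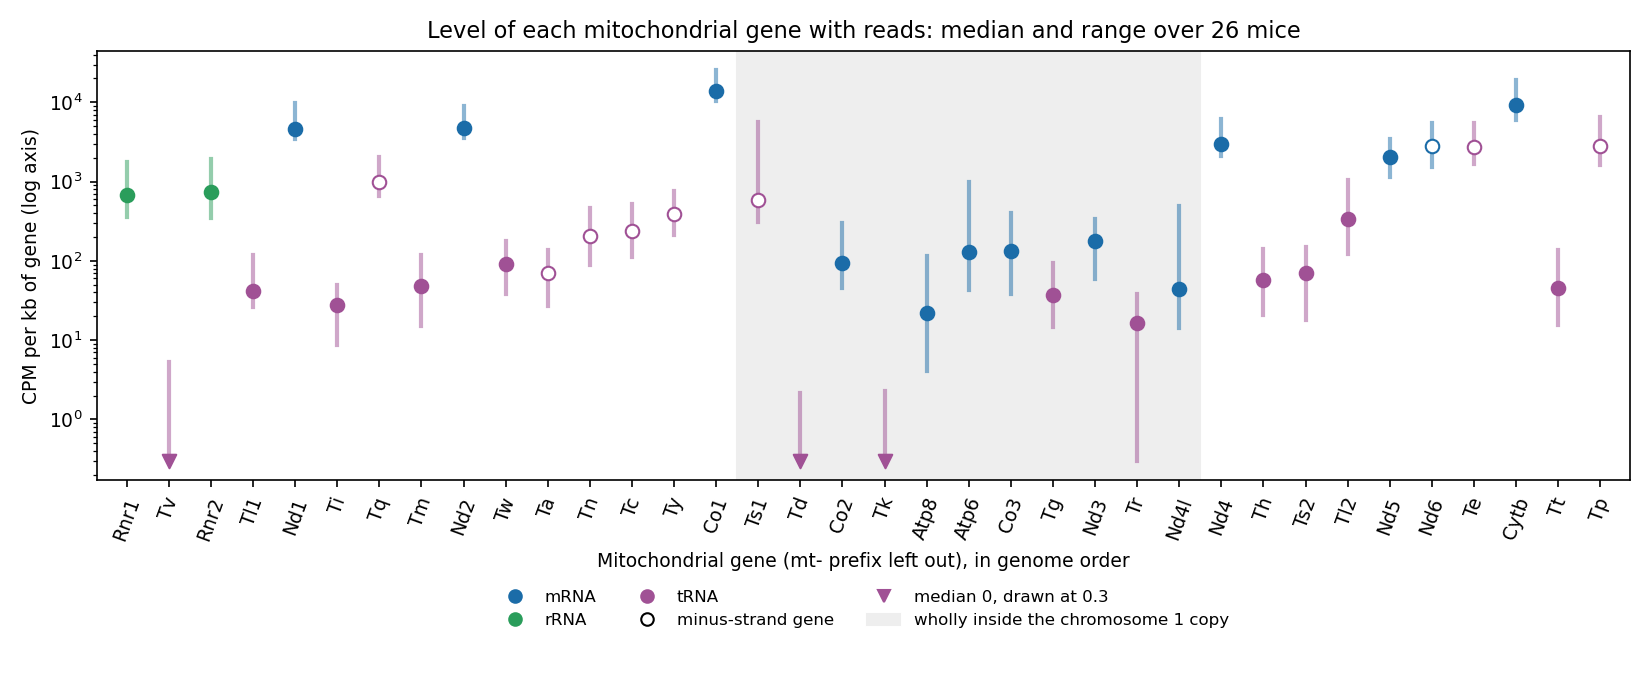
Level of each mitochondrial gene (CPM per kb, log axis) in the order of the genes on mitochondrial DNA, with the median and range over 26 mice, and with genes of the plus and minus strand and genes wholly inside the span of the nuclear copy marked. The 6 mRNAs wholly inside the span lie at medians of 22.3 to 176 CPM per kb, and the 7 others at 2027 to 14039.

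The 6 low mRNAs are neighbours on the mitochondrial circle, and their place is that of a nuclear copy. The annotation (GENCODE M21, build GRCm38, which is mm10) lists 7 pseudogenes in a row on chromosome 1, at 24611535 to 24616197 on the minus strand, whose sequences match mitochondrial positions 6381 to 11042. Over the 4149 bases compared, 7 differed, an identity of 99.8%. Gm28661, Gm10925, Gm28437 and Gm10222 matched mt-Co2, mt-Atp6, mt-Co3 and mt-Nd4l with no mismatch, and Gm28439 matched the first 876 of the 1378 bases of mt-Nd4. Besides the 6 mRNAs that lie wholly in the span, mt-Nd4 thus has 63.6% of its bases in it and mt-Co1 31.8%, and these 2 are counted below with the 5 mRNAs that lie outside it as the other 7 mRNAs. Gm28438 differed from mt-Nd3 at 1 base (T3C, counted from the first base of mt-Nd3, mitochondrial base first), and Gm29216 from mt-Co1 at 6 bases (T1056A, C1057T, A1059G, A1060G, C1062A and A1066T, counted from the first base of mt-Co1). The stretches that hold all 7 differences are shown because, within the annotated copies, a read that covers none of these bases has the same letters in both places. Capitals mark the bases that differ, positions are those of GRCm38 in the GENCODE transcripts, and each sequence is written in the sense of its transcript. The first pair is chrM:6381-6461 (plus strand) with chr1:24616117-24616197 (minus strand), and the next is chrM:9459-9539 (plus strand) with chr1:24613039-24613119 (minus strand).
mt-Co1: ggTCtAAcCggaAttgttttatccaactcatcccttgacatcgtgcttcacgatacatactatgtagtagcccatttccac
Gm29216: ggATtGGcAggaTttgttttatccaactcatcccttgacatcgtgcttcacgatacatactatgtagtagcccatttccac
mt-Nd3: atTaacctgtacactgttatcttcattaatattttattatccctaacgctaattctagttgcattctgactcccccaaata
Gm28438: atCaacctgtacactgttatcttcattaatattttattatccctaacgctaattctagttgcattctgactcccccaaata

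Of all windows of 100 bases, 99.5% in mt-Co2, 99.5% in mt-Atp6, 99.9% in mt-Co3, 97.6% in mt-Nd3 and 98.5% in mt-Nd4l occur letter for letter in an annotated nuclear transcript. The share was 60.8% in mt-Nd4, 30.8% in mt-Co1 and 3.19% in mt-Nd2, and it was 0 in mt-Nd1, mt-Nd5, mt-Nd6, mt-Cytb, both rRNAs and mt-Atp8, the one mRNA wholly in the span with no shared window. With windows of 50 bases it was 62.2% in mt-Nd4, 51.1% in mt-Co1, 8.19% in mt-Nd2, 7.61% in mt-Nd5 and 1.04% in mt-Rnr2. It stayed 0 in mt-Nd1, mt-Nd6, mt-Cytb, mt-Rnr1 and mt-Atp8. The 5 copies of mt-Co2, mt-Atp6, mt-Co3, mt-Nd3 and mt-Nd4l held 53162 reads, beside 80794 for these 5 mRNAs. With mt-Atp8, the 6 mRNAs wholly in the span held 0.764% of mitochondrial reads and the other 7 held 94.4%. Gm10925, the copy of mt-Atp6, had 25974 reads beside 28644 for mt-Atp6, and Gm28437, the copy of mt-Co3, had 18083 beside 21413 for mt-Co3. With the reads of its copy added, the median level of mt-Atp6 was 295 CPM per kb and that of mt-Co3 253, still below the lowest mouse of mt-Nd5. How the counting treated reads that map to several places is not given in the sources used here, and its part in these low levels was not tested. mt-Atp8, which encodes a small subunit of ATP synthase, has no annotated copy of its own and the lowest median level of the 13 mRNAs. Gm10925 begins with the last 43 bases of mt-Atp8, too few to fill a window. Only annotated transcripts were searched, so a nuclear copy outside them was not looked for, also for the rest of mt-Atp8. Its last 43 bases are also the first of mt-Atp6 (capitals, chrM:7870-7969, plus strand), and how the counting treated reads in such an overlap is not given in the sources used here.
mt-Atp8 end: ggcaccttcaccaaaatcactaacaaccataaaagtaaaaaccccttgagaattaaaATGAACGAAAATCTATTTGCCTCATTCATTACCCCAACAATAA

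Levels of mRNAs wholly inside the span also varied most between mice. The highest mouse had 2.43 times the lowest in CPM for mt-Co1 and 2.52 times for mt-Nd2. The same ratio was 23.1 for mt-Atp6, 28.6 for mt-Atp8 and 34.3 for mt-Nd4l. These genes also have fewer reads, from 1212 for mt-Atp8 to 28644 for mt-Atp6 over all mice.

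The tRNAs differed by strand in their total reads, while single genes of the 2 strands overlapped in level. The 8 tRNAs encoded on the minus strand held 1.06% of mitochondrial reads (0.347% in mt-Tp and 0.343% in mt-Te) and the 14 on the plus strand 0.103%. Median levels of the minus-strand tRNAs ran from 69.3 CPM per kb for mt-Ta (alanine) to 2750 for mt-Te (glutamate) and 2840 for mt-Tp (proline), in the range of the complex I mRNAs. Of the plus-strand tRNAs, mt-Tl2, a leucine tRNA, had the highest median with 338 CPM per kb, and mt-Tw (tryptophan) followed with 90.7. Both lay above mt-Ta, and mt-Tl2 also above the minus-strand mt-Tn (206) and mt-Tc (238). mt-Tf (phenylalanine) had no read in 26 libraries, and mt-Tv (valine), mt-Td (aspartate) and mt-Tk (lysine) had 10, 2 and 1 reads, so these 4 were not tested. Whether these reads come from tRNAs, from precursors or from RNA of the opposite strand was not tested. The sequences of the pair with the highest levels and of mt-Tl2 with its neighbour mt-Ts2, a serine tRNA, are given, the first pair for their level and the second because the comparisons of dose and run describe them. mt-Tp lies at chrM:15356-15422 and mt-Te at chrM:14071-14139 on the minus strand, and mt-Ts2 at chrM:11613-11671 and mt-Tl2 at chrM:11671-11741 on the plus strand. The capital marks the 1 base that mt-Ts2 and mt-Tl2 share.
mt-Tp: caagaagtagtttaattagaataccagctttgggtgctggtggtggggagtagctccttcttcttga
mt-Te: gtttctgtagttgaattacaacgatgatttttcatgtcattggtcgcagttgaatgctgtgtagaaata
mt-Ts2: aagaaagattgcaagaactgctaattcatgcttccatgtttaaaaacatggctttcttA
mt-Tl2: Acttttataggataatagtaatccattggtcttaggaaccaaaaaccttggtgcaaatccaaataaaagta

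The share of all reads taken by mitochondrial genes varied more between mice of the same dose than between doses. At 0 mg/kg it was 8.38% in the run from 619, with 6.04%, 6.20%, 5.22% and 4.89% in the run from 601. At 0.5 mg/kg both mice of the run from 619 had 4.12%, and the mice of the run from 601 had 10.4%, 6.75% and 6.14%. The highest and the lowest of these mice at 0.5 mg/kg differ by more than any group means do. At 5 mg/kg it was 4.24%, 3.83%, 5.01% and 4.49% in the run from 619, with 7.10%, 4.88%, 7.42% and 4.80% in the run from 601. At 50 mg/kg it was 4.60%, 5.93%, 7.29% and 4.27% in the run from 619, with 6.48%, 6.38%, 5.25% and 4.37% in the run from 601. Counting error is small beside this spread, since the highest mouse had a 95% Wilson interval of 10.42% to 10.48% and the lowest one of 3.81% to 3.84%, which cover counting error only. Low and high mice occurred at every dose and the ranges of all 4 doses overlapped.

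By group, the share averaged 6.15% ± 1.37 at 0 mg/kg (SD, n = 5), 6.32% ± 2.60 at 0.5 mg/kg (n = 5), 5.22% ± 1.32 at 5 mg/kg (n = 8) and 5.57% ± 1.12 at 50 mg/kg (n = 8). The 50 mg/kg mean thus differed from the 0 mg/kg mean by -0.576 percentage points, with a pooled SD of 1.21, and the 5 mg/kg mean by -0.927 points, with a pooled SD of 1.33. The 0.5 mg/kg mean was 0.169 points above it, with a pooled SD of 2.07. Each of these differences was smaller than the spread between mice. The run from 619 averaged 5.12% ± 1.48 (n = 11) and the run from 601 6.16% ± 1.497 (n = 15), a difference of -1.04 points that was also smaller than the pooled SD of 1.49, and these ranges overlapped as well.

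Within runs the dose differences did not keep 1 direction. In the run from 619 the share averaged 4.12% at 0.5 mg/kg (n = 2), 4.39% ± 0.493 at 5 mg/kg (n = 4) and 5.52% ± 1.38 at 50 mg/kg (n = 4), all below the 8.38% of the single 0 mg/kg mouse, replicate 5. In the run from 601 it averaged 5.59% ± 0.635 at 0 mg/kg (n = 4), 7.78% ± 2.33 at 0.5 mg/kg (n = 3), 6.05% ± 1.40 at 5 mg/kg (n = 4) and 5.62% ± 0.999 at 50 mg/kg (n = 4), so the 3 dosed groups lay level with or above the 0 mg/kg group. Without 0 mg/kg replicate 5 the 50 mg/kg mean differed from the 0 mg/kg mean by -0.0177 points. Without 0.5 mg/kg replicate 1, the mouse with 10.4%, the 0.5 mg/kg mean differed from the 0 mg/kg mean by -0.864 points instead of 0.169.

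**Figure D2:**
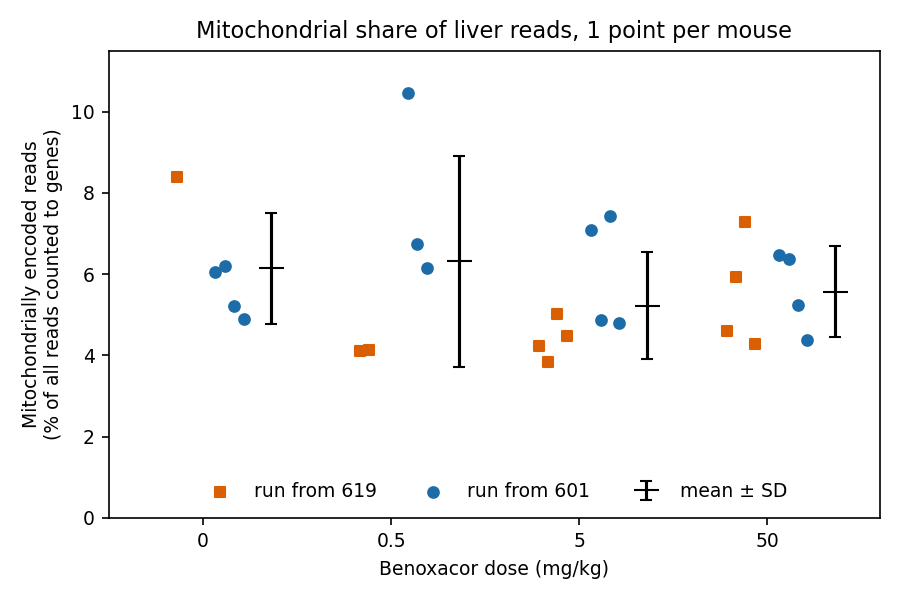
Mitochondrial share of all reads counted per library (percent, linear axis from 0) by dose, 1 point a mouse, with symbols for the 2 runs of mouse numbers and with the mean and SD of each dose. The 4 doses overlap, and the highest mouse, at 10.4%, and both mice at 4.12% belong to the same 0.5 mg/kg group.

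Within the mitochondrial reads, mt-Co1 kept a similar share in every mouse. mt-Co1 took 37.3% to 42.7% of the mitochondrial reads of each mouse, with means of 39.1%, 40.4%, 41.8% and 40.4% at 0, 0.5, 5 and 50 mg/kg. The rRNAs took 2.36% to 7.48%, with means of 3.49%, 4.39%, 2.91% and 3.95%. mt-Rnr2 (1582 bases) had 1.08 to 2.58 times the reads of mt-Rnr1 (955 bases), not scaled by length, and both lie on the same primary transcript. Per kilobase their median levels were 739 and 680 CPM. mt-Nd6 (519 bases), transcribed from the other strand, had 0.343 to 0.456 times the reads of its neighbour mt-Nd5 (1824 bases). Per kilobase mt-Nd6 lay above mt-Nd5 in 26 of 26 mice.

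No mitochondrial gene passed the test at any dose. At 50 against 0 mg/kg, edgeR's quasi-likelihood test with run as a term and Benjamini-Hochberg adjustment over 14415 genes called 0 of the 33 mitochondrial genes at an adjusted p of 0.05, where it called 0.00694% of all genes tested, a single gene. DESeq2 and limma-voom also called 0 of the 33. At an unadjusted p under 0.05 there were 3 of the 33 by edgeR, against 5.11% of all genes, and 3 each by DESeq2 and limma-voom. In addition, 0 of the 33 had groups that did not overlap, where 0.166% of all genes did. The same count was 0 of 33 at 5 against 0 mg/kg (0.222% of all genes), at 0.5 against 0 mg/kg (1.4%) and at 50 against 5 mg/kg (0.00694%).

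The 7 mRNAs that do not lie wholly in the span differed little at 50 against 0 mg/kg. Their log2 fold changes ran from -0.11 for mt-Cytb to 0.03 for mt-Nd1, with a median of -0.06, against 0.01 over all genes tested. For mt-Co1 the level in CPM after edgeR's TMM scaling of library totals, used for all levels per mouse from here on, was 18454 CPM in the lowest, 22406 in the median and 26935 in the highest of the 8 mice at 50 mg/kg, against 21089.9, 23397, 21282, 18473 and 31186 CPM in the 5 mice at 0 mg/kg. Only the highest 0 mg/kg mouse lay outside the range of the 50 mg/kg mice, and the groups overlapped. The log2 fold change of mt-Co1 was 0.02 (SE 0.21), with a 95% interval of -0.41 to 0.45 (edgeR's quasi-likelihood test, adjusted p = 0.999 by Benjamini-Hochberg).

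mt-Nd6, the complex I subunit from the other strand, had 1131 CPM in the lowest, 1522 in the median and 2000.5 in the highest mouse at 50 mg/kg, against 1573, 1817, 1071, 1424 and 2551 CPM at 0 mg/kg. Its log2 fold change of -0.08 (SE 0.26, 95% interval -0.60 to 0.45) was near that of the plus-strand mRNAs. For mt-Rnr1, the levels at 50 mg/kg ran from 452 CPM over a median of 658 to 1697, against 718, 675, 685, 529 and 1009 CPM at 0 mg/kg. For mt-Rnr2 they ran from 589.7 CPM over a median of 1273 to 3082, against 1692, 1116, 1113, 699.9 and 2319 CPM. The 50 mg/kg groups enclosed all 0 mg/kg values of both rRNAs, and their upper end was 1 mouse, replicate 2. The log2 fold changes were 0.19 (SE 0.29) for mt-Rnr1 and 0.09 (SE 0.35) for mt-Rnr2, and without that mouse they were -0.04 and -0.14. Values this near 0 also changed sign when other single mice were left out. For mt-Co1 this held for 4 mice, namely controls 1, 3 and 4 and the 50 mg/kg mouse 7 by replicate number. For mt-Nd6 it held for control 5 and the 50 mg/kg mouse 4, and for mt-Rnr2 for controls 2, 3 and 4 and the 50 mg/kg mice 2 and 7.

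**Figure D3:**
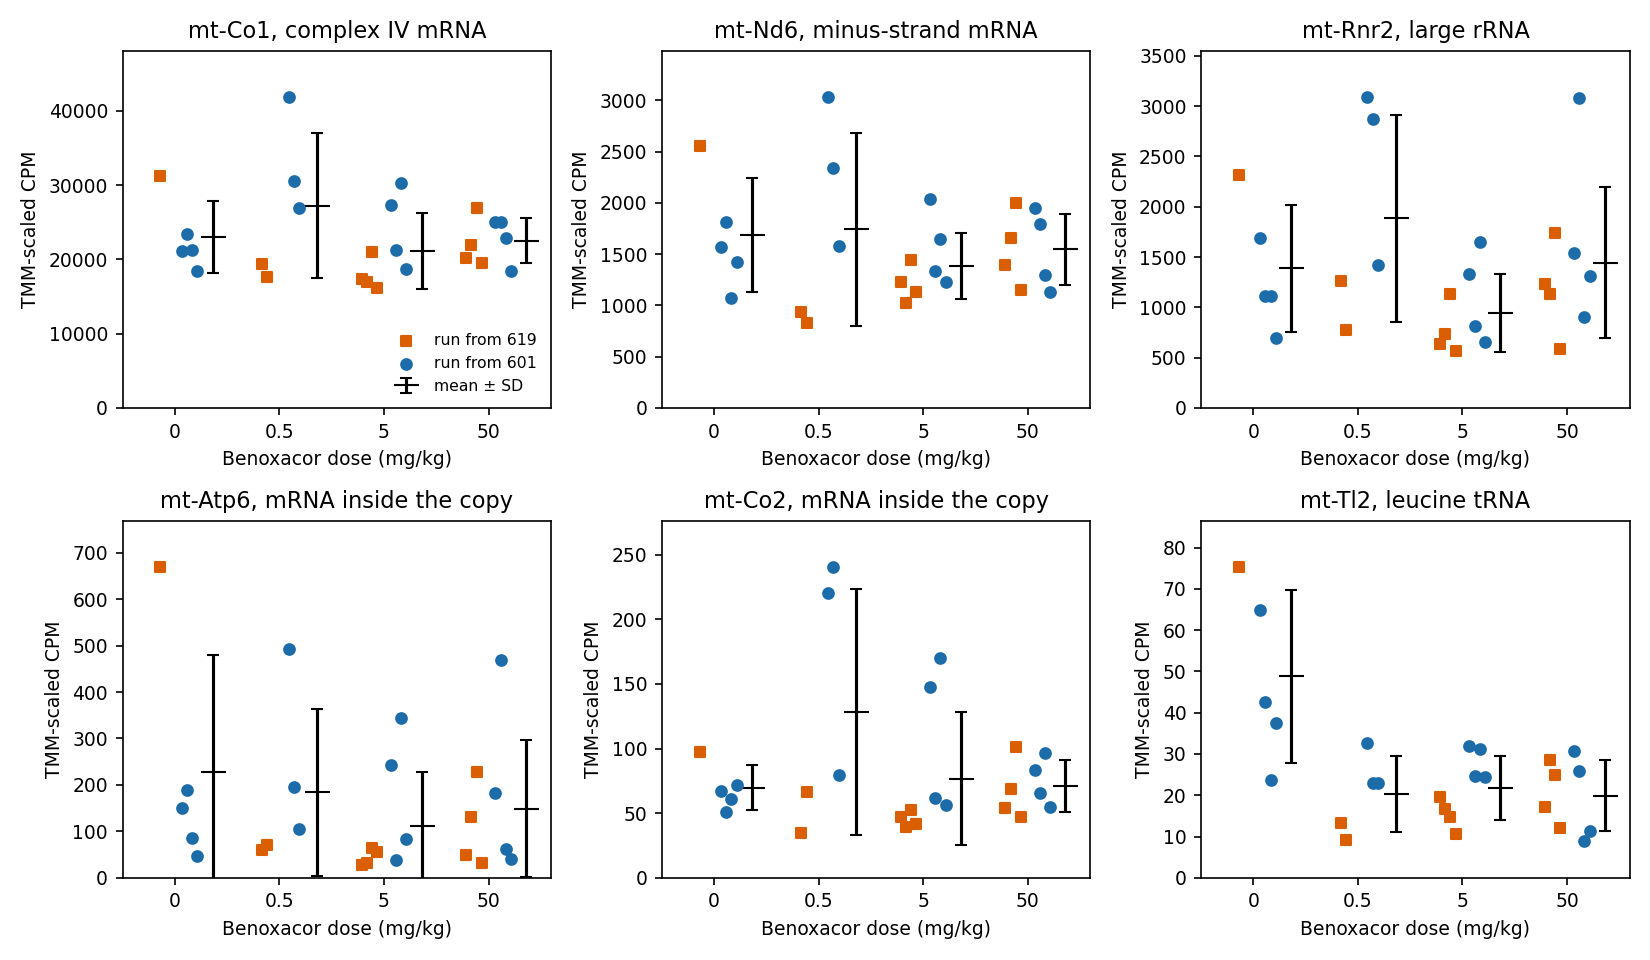
TMM-scaled CPM (linear axes) of mt-Co1, mt-Nd6, mt-Rnr2, mt-Atp6, mt-Co2 and mt-Tl2 by dose, 1 point a mouse, with symbols for the run and with mean and SD, whose lower end is not drawn below 0. The doses overlap in each panel, and in the mt-Tl2 panel 4 of the 5 mice at 0 mg/kg lie above all 21 dosed mice. mt-Tl2 was picked for its small p in these mice, and the share of all genes that separate this far was not counted.

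The tRNAs had 3 positive and 15 negative values among the 18 tested, with a median log2 fold change of -0.32. The 6 mRNAs wholly inside the span had wider values. Their median log2 fold change at 50 against 0 mg/kg was -0.48, from -0.77 for mt-Atp6 (SE 0.76, 95% interval -2.35 to 0.81) to 0.25 for mt-Nd4l (SE 0.77). mt-Atp6, the proton channel subunit of ATP synthase, had 32.7 CPM in the lowest, 96.5 in the median and 469 in the highest mouse at 50 mg/kg, against 150.2, 189, 86.3, 46.3 and 669 CPM at 0 mg/kg. mt-Nd4l, a complex I subunit, had 5.27 CPM in the lowest, 11.9 in the median and 151 in the highest mouse, against 13.7, 10.1, 7.27, 16.1 and 52.8 CPM. In each of these genes 1 mouse on either side set the mean. Without 0 mg/kg replicate 5 the log2 fold change was 1.07 for mt-Atp6 and 1.71 for mt-Nd4l, and without 50 mg/kg replicate 3 that of mt-Nd4l was -0.90. It was also below 0 without 0 mg/kg replicates 2 or 3. mt-Nd3, another complex I subunit, averaged 48.4 ± 22.7 CPM at 50 mg/kg (n = 8), against 82.1 ± 32.2 CPM at 0 mg/kg (n = 5). Its log2 fold change of -0.70 (SE 0.33, unadjusted p = 0.0435) did not pass, with an adjusted p of 0.961 by edgeR's quasi-likelihood test. The glycine tRNA mt-Tg, which lies next to it, had 1.02 to 3.27 CPM at 50 mg/kg, against 1.92 to 5.79 CPM at 0 mg/kg, with a log2 fold change of -0.73 (SE 0.33, adjusted p = 0.930 by the same test).

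mt-Tl2 had the smallest p of the 33 genes in each of the 3 comparisons with 0 mg/kg, which share the same 5 control mice. At 0 mg/kg its level was 75.2 CPM in the run from 619, with 65.0, 42.6, 23.7 and 37.4 CPM in the run from 601. At 0.5 mg/kg it was 13.4 and 9.25 CPM in the run from 619, with 32.8, 22.9 and 23.1 CPM in the run from 601. The highest of these dosed mice thus lay below all control mice but 1. At 5 mg/kg it was 19.5, 16.7, 14.8 and 10.7 CPM in the run from 619, with 31.9, 24.8, 31.3 and 24.4 CPM in the run from 601. At 50 mg/kg it was 17.2, 28.5, 24.9 and 12.01 CPM in the run from 619, with 30.7, 25.97, 8.90 and 11.3 CPM in the run from 601. All 21 dosed mice lay below the second-lowest control at 37.4 CPM, 12 of the 21 lay below the lowest at 23.7 CPM, and the groups overlapped at each dose. The gene was picked for its p in these same mice. How many of all genes tested separate this far was not counted, so these counts are no separate sign of a dose effect.

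The mean level of mt-Tl2 was 48.8 ± 21.0 CPM at 0 mg/kg (SD, n = 5), 20.3 ± 9.22 at 0.5 mg/kg (n = 5), 21.8 ± 7.66 at 5 mg/kg (n = 8) and 19.9 ± 8.60 at 50 mg/kg (n = 8), with no order among the 3 dosed groups beyond their spread. At 50 against 0 mg/kg the log2 fold change was -1.22 (SE 0.32, 95% interval -1.89 to -0.56, unadjusted p = 8.7e-04), and it did not pass over all genes with an adjusted p of 0.635 by edgeR's quasi-likelihood test. At 5 against 0 mg/kg it was -1.14 (SE 0.32, unadjusted p = 0.0014, adjusted p = 0.750 by the same test), and at 0.5 against 0 mg/kg -1.30 (SE 0.37, unadjusted p = 0.0016, adjusted p = 0.492 by the same test). The neighbouring tRNAs mt-Th (histidine) and mt-Ts2 had negative values too, with intervals that span 0 in all 3 comparisons. At 50, 5 and 0.5 against 0 mg/kg they had -0.56, -0.26 and -0.53 (mt-Th) and -0.46, -0.23 and -0.28 (mt-Ts2). Of the 10 tested plus-strand tRNAs, mt-Tl2 included, 9 were negative and 1 positive in each comparison. Of the 8 on the minus strand, 6, 6 and 1 were negative. In the run from 619 alone, with its single control mouse, the log2 fold change of mt-Tl2 was -2.71, -2.28 and -1.86 at 0.5, 5 and 50 against 0 mg/kg. In the run from 601 alone it was -0.72, -0.60 and -1.14. Without 0 mg/kg replicate 5, the values over both runs were -0.93, -0.73 and -0.79. RNAs retained in the nucleus such as Malat1 and Neat1 summed to 1410 to 4529 CPM at 50 mg/kg, against 2261 to 5152 CPM at 0 mg/kg, and their part in this result was not tested.

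At 5 against 0 mg/kg the direction of the values was more one-sided, but again 0 of the 33 passed, where 0% of all genes tested passed. At an unadjusted p under 0.05 there were 3 of the 33, against 6.18% of all genes, with 4 by DESeq2 and 3 by limma-voom, neither of which called any of the 33 after adjustment. Of the 33 log2 fold changes 4 were positive and 29 negative, with a median of -0.27 against 0.01 over all genes. Without 5 mg/kg replicates 6 and 8, the mice with adipocyte or adrenal markers, 5 of the 33 were positive and the median was -0.20. Then 1 of the 33 had an unadjusted p under 0.05 by edgeR's quasi-likelihood test, against 761 of 14293 genes, and none passed. The other 7 mRNAs, those not wholly in the span, ran from -0.30 for mt-Cytb to -0.09 for mt-Co1. mt-Co3, a complex IV subunit, averaged 78.5 ± 48.0 CPM at 5 mg/kg (n = 8), against 172.9 ± 92.2 CPM at 0 mg/kg (n = 5), with a log2 fold change of -1.15 (SE 0.45, adjusted p = 0.780 by edgeR's quasi-likelihood test). The threonine tRNA mt-Tt averaged 2.77 ± 1.24 CPM at 5 mg/kg, against 5.04 ± 2.49 CPM at 0 mg/kg, with a log2 fold change of -0.84 (SE 0.40, adjusted p = 0.780 by the same test). mt-Co1 had -0.09 and mt-Rnr2 -0.53 (SE 0.34), and without 0 mg/kg replicate 5 they had 0.18 and 0.03. Without that same mouse the median of these 7 mRNAs was 0.08 in place of -0.22.

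At 0.5 against 0 mg/kg 0 of the 33 passed, where 0% of all genes tested passed, and 2 of the 33 had an unadjusted p under 0.05, against 6.99% of all genes, with 3 by DESeq2 and 2 by limma-voom, neither of which called any of the 33 after adjustment. Here 19 of the 33 log2 fold changes were positive and 14 negative. mt-Rnr1 averaged 1196 ± 529 CPM at 0.5 mg/kg, against 723 ± 175 CPM at 0 mg/kg (SD, n = 5 each), with a log2 fold change of 0.72 (SE 0.32, adjusted p = 0.661 by edgeR's quasi-likelihood test). Its values were 1785, 1726, 869.6, 982 and 615 CPM at 0.5 mg/kg, so that replicates 1 and 2 lay above every control mouse and the other 3 within the range of the control mice. mt-Co2, a complex IV subunit, had 220.4, 240.2, 79.7, 34.7 and 66.5 CPM at 0.5 mg/kg, against 66.9, 50.7, 61.2, 71.6 and 97.6 CPM at 0 mg/kg. The same 2 mice were again the highest, and the log2 fold change of 0.79 (SE 0.41) was -0.08 without them. For the 7 mRNAs the median of 0.22 became -0.20 without these 2 mice.

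Within each run the comparisons with 0 mg/kg gave other counts, and at 0.5 mg/kg opposite directions. The run from 619 had a single control mouse, with the highest mitochondrial share of the controls. There, 18 of the 33 had an unadjusted p under 0.05 at 0.5 against 0 mg/kg, against 10.8% of all genes, and all 18 were lower at 0.5 mg/kg. The run from 601, with 3 mice against 4, had 16 of the 33, against 16.2% of all genes, and all 16 were higher at 0.5 mg/kg. The median log2 fold change over the 33 was -1.09 in the run from 619, but 0.63 in that from 601. At 5 against 0 mg/kg the counts were 21 in the run from 619 (6.83% of all genes), all lower, and 0 in the run from 601 (7.83%). At 50 against 0 mg/kg they were 10 in the run from 619 (2.96%) and 2 in that from 601 (6.11%), all lower. None of the 33 passed after adjustment by edgeR's quasi-likelihood test in either run, with a lowest adjusted p of 0.253 for 619 and 0.141 for 601. The values of the run from 619 rest on 1 control mouse, and the difference between runs in these comparisons was not tested. Those of the run from 601 at 0.5 mg/kg include replicate 1, with a mitochondrial share of 10.4%, against 6.75% and 6.14% in replicates 2 and 3. The 33 genes were counted in the same mice, so a count of them does not measure how many independent differences there are.

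Between 50 and 5 mg/kg, groups of 8 mice each with 4 of each in either run, 0 of the 33 passed, where 0% of all genes tested passed. One gene, mt-Tg, had an unadjusted p under 0.05, against 4.85% of all genes, and DESeq2 and limma-voom also had 1 of the 33 each and called none of them. mt-Tg averaged 2.04 ± 0.81 CPM at 50 mg/kg, against 3.31 ± 1.29 CPM at 5 mg/kg, a log2 fold change of -0.68. The rRNAs had positive values, 0.49 (SE 0.25) for mt-Rnr1 and 0.62 (SE 0.30) for mt-Rnr2, with adjusted p = 0.962 for both by edgeR's quasi-likelihood test. The 7 mRNAs not wholly in the span had log2 fold changes of 0.11 to 0.20. These 7 had a median of 0.37 in the run from 619, but -0.07 in the run from 601. The difference between runs in the 50 against 5 mg/kg effect was tested by an interaction term, which called 0 of 32 mitochondrial genes, where 0% of the 13418 genes tested passed. At an unadjusted p under 0.05 this term had 2 of the 32, mt-Ts1 (serine tRNA) and mt-Co2, of which mt-Co2 had a difference of 1.10 (SE 0.46, adjusted p = 0.982 by edgeR's quasi-likelihood test).

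**Figure D4:**
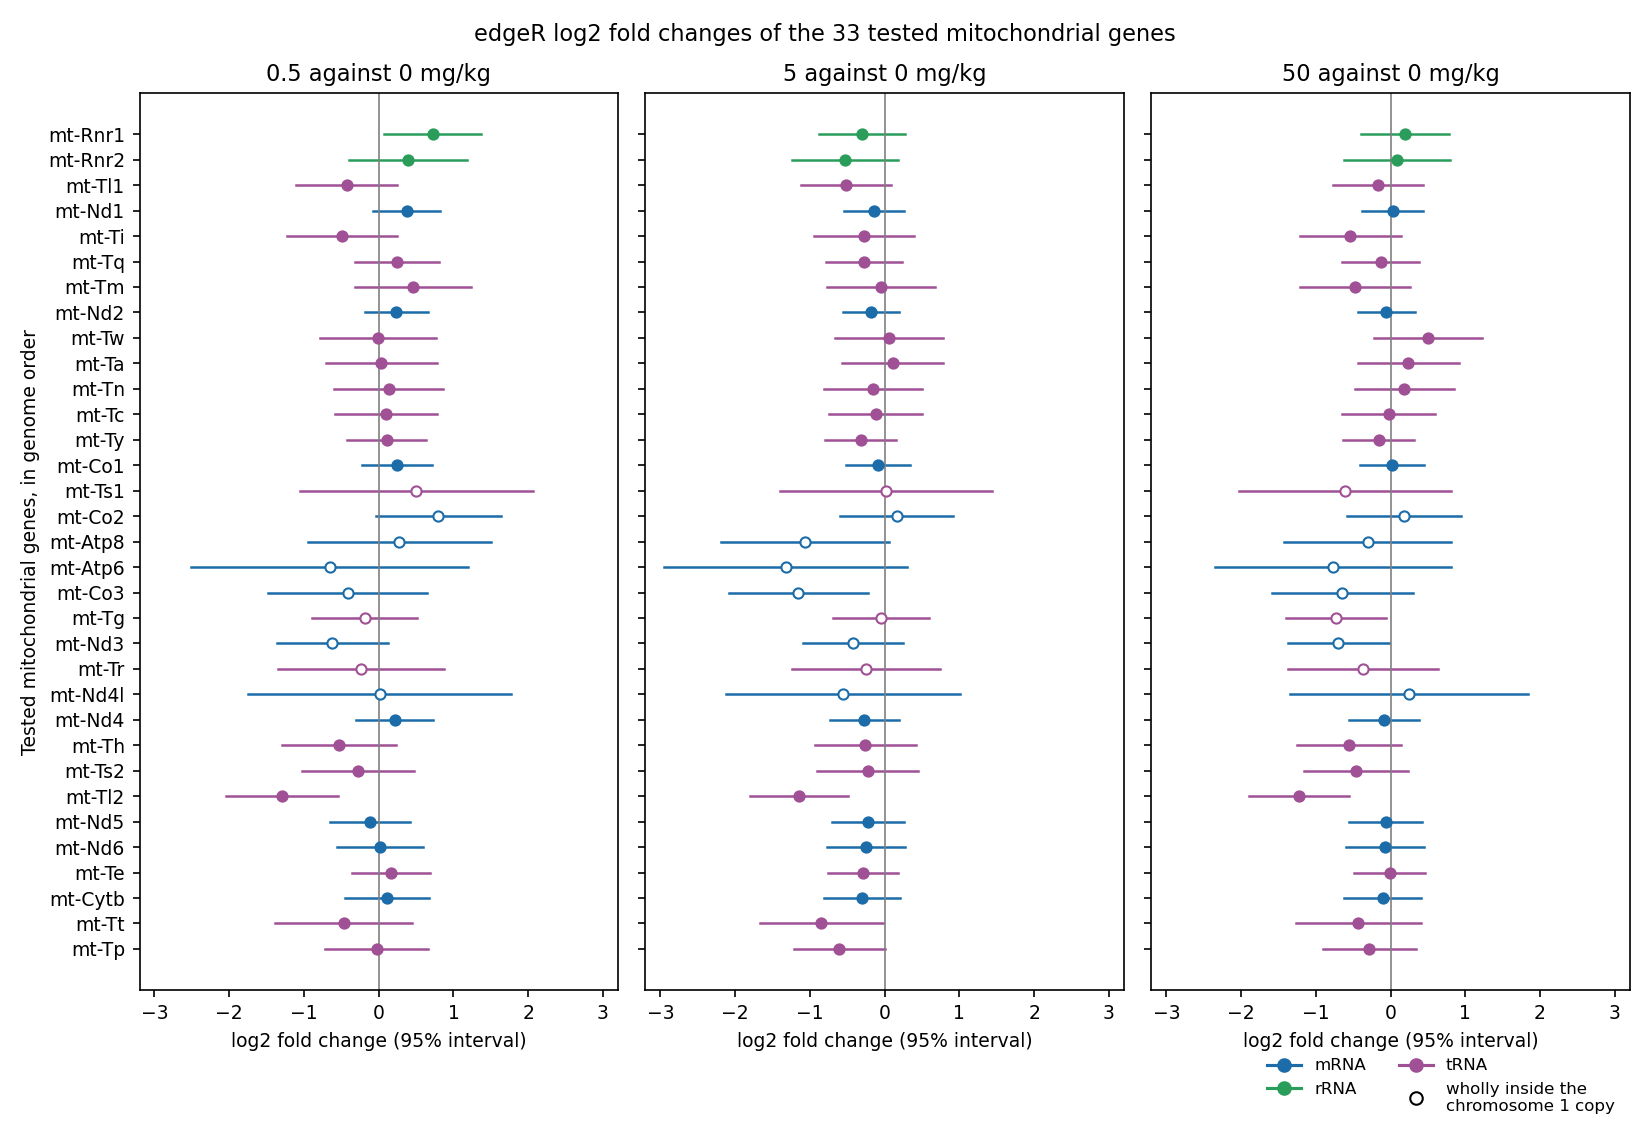
Log2 fold change (edgeR, points) with 95% interval (bars) of the 33 tested mitochondrial genes in genome order, at 0.5, 5 and 50 against 0 mg/kg, coloured by RNA class and with open points for genes wholly inside the copy. The interval of mt-Tl2 lies below 0 in all 3 panels, and the other intervals that leave out 0 are those of mt-Rnr1 at 0.5, mt-Co3 and mt-Tt at 5, and mt-Nd3 and mt-Tg at 50 against 0 mg/kg.

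Between the runs of mouse numbers the mitochondrial mRNAs had 1 direction, and none passed. For the run from 619 against the run from 601, with dose as a term, edgeR's quasi-likelihood test called 0 of the 33, where it called 0.0902% of all genes tested, 13 genes. At an unadjusted p under 0.05 there were 3 of the 33, against 7.98% of all genes, and DESeq2 and limma-voom also had 3 each and called none of the 33. All 13 mRNAs had negative log2 fold changes, from -0.90 for mt-Nd4l (SE 0.54) to -0.19 for mt-Nd2 (SE 0.13), with a median of -0.23 over the 7 not wholly in the span, against 0.02 over all genes. mt-Co1 averaged 20758 ± 4576 CPM in the run from 619 (SD, n = 11) and 24842 ± 6134 CPM in the run from 601 (n = 15), with a log2 fold change of -0.23 (SE 0.15, 95% interval -0.54 to 0.07). The ranges overlapped for each of these mRNAs. mt-Co2 averaged 59.0 ± 22.5 CPM in the run from 619 and 102 ± 62.3 CPM in the run from 601, with a log2 fold change of -0.69 (SE 0.26, adjusted p = 0.450 by edgeR's quasi-likelihood test). The smallest p was that of mt-Tr (arginine tRNA), with 0.59 ± 0.47 CPM in the run from 619 and 1.44 ± 0.53 CPM in the run from 601, a log2 fold change of -1.20 (SE 0.36, unadjusted p = 0.0026, adjusted p = 0.236 by edgeR's quasi-likelihood test). mt-Ts2 averaged 3.31 ± 1.05 CPM in the run from 619, against 4.91 ± 1.95 CPM in the run from 601, a log2 fold change of -0.51 with an adjusted p of 0.613 by the same test. mt-Tr had only 203 reads in all. Its adjusted p of 0.0795 by DESeq2 was the lowest of any mitochondrial gene in 211 other results, none of which called 1. Each of these results is 1 comparison under another setting or without 1 mouse.

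The nuclear genes that make, read and process mitochondrial DNA were also measured. At 50 against 0 mg/kg edgeR's quasi-likelihood test called none of them, where it called 0.00694% of all genes. DESeq2 and limma-voom called none of them either. Of 11 transcription factors and helpers, 8 had positive and 3 negative log2 fold changes, with a median of 0.20, against 51.1% positive over all genes. By edgeR 2 of the 11 had an unadjusted p under 0.05, against 5.11% of all genes. Tfam, which packs mitochondrial DNA and opens its promoters, averaged 47.2 ± 2.89 CPM at 50 mg/kg (n = 8), against 38.0 ± 2.09 CPM at 0 mg/kg (n = 5). Its 50 mg/kg values lay between 43.4 and 52.1 CPM and its 0 mg/kg values between 35.0 and 40.8 CPM, so the groups did not overlap, as in 0.166% of all genes. The log2 fold change of Tfam was 0.33 (SE 0.10), and it did not pass with an adjusted p of 0.769 by edgeR's quasi-likelihood test. At 5 mg/kg Tfam averaged 44.6 ± 6.06 CPM and at 0.5 mg/kg 44.3 ± 5.54 CPM, and both ranges overlapped that of the 0 mg/kg mice. The polymerase Polrmt averaged 25.9 ± 2.37 CPM at 50 mg/kg, against 27.5 ± 4.64 CPM at 0 mg/kg, and Lrpprc, which stabilises mitochondrial mRNAs, averaged 131 ± 13.6 CPM at 50 mg/kg, against 127.6 ± 13.2 CPM at 0 mg/kg.

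Of the subunits that the nucleus supplies to the same complexes, 31 of 36 in complex I, 8 of 9 in complex III, 7 of 10 in complex IV and 13 of 16 in complex V had positive log2 fold changes at 50 against 0 mg/kg. The medians were 0.10, 0.11, 0.15 and 0.14, against 0.01 over all genes, and -0.06 for the 7 mitochondrial mRNAs. Complex II, whose subunits are all nuclear, had 4 of 4 positive with a median of 0.17. Atp5c1, the shaft subunit of ATP synthase, averaged 256 ± 28.8 CPM at 50 mg/kg, against 208 ± 12.4 CPM at 0 mg/kg, and Ndufs1, an iron-sulfur subunit of complex I, 167 ± 14.8 CPM at 50 mg/kg, against 143 ± 14.7 CPM at 0 mg/kg. Neither passed, and the shared direction within a list was not tested. Some cell type lists also leaned to 1 side in this comparison, where 51.1% of all genes had positive log2 fold changes. Stellate and fibroblast, erythroid and biliary markers had 3 of 8, 2 of 5 and 1 of 2 positive. Adrenal and adipocyte markers had 0 of 2 each. Of 10 hepatocyte markers 7 had positive log2 fold changes (median 0.12), and they summed to 61624 to 112702 CPM at 50 mg/kg, against 58970 to 74024 CPM at 0 mg/kg. Of 7 tested immune cell markers 0 were positive, with sums of 73.7 to 149 CPM at 50 mg/kg over all 12 listed, against 99.9 to 170 CPM at 0 mg/kg. Endothelial markers had 2 of 8 positive, with sums of 230.3 to 333 CPM at 50 mg/kg, against 293 to 382 CPM at 0 mg/kg, and RNAs retained in the nucleus had 0 of 5 (median -0.32). The groups overlapped for each sum, no listed hepatocyte, immune or endothelial marker was without reads over all mice, and their part in the values of the nuclear subunits was not tested. For 29 genes of mitochondrial RNA processing the counts were 23 positive and 6 negative (median 0.09), for 77 mitochondrial ribosomal proteins 57 and 20 (median 0.07), for 16 genes of mitochondrial DNA maintenance 9 and 7 (median 0.02), and for 11 regulators of mitochondrial biogenesis 7 and 4 (median 0.04). Genes with an unadjusted p under 0.05 by edgeR numbered 0 in complexes I, III and IV and in DNA maintenance. They numbered 1 each in complexes II and V, RNA processing and biogenesis, and 3 among the 77 ribosomal proteins, against 5.11% of all genes. The regulator Ppargc1b averaged 6.74 ± 2.18 CPM at 50 mg/kg, against 10.3 ± 2.63 CPM at 0 mg/kg and did not pass.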

How the data were processed

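Gene counts of liver RNA from 26 mice were used. The authors deposited raw counts of reads per gene, per sample and as 1 annotated table, and the 2 agreed in every value. The tools were bcl2fastq and featureCounts on the build mm10, per the submitters' processing notes. The aligner, the annotation, the strand setting, the treatment of reads that map to several places and the kit's RNA selection are not given in the sources used here.

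Counts were fitted with edgeR 4.0.16 in R 4.3.3 (TMM factors, filterByExpr, robust quasi-likelihood test, dose and run as terms) over 14415 genes, which hold 99.7% of the reads. Benjamini-Hochberg adjustment covered all genes tested, with a threshold of 0.05. Shares are reads of mt- genes over all reads counted, and no p was computed for them. Alternatives were DESeq2 1.42.0, limma 3.58.1 (voom), other filters, scalings and sets of mice. Sequences and copies came from the GENCODE M21 transcripts (GRCm38), in which 54409 gene IDs were found.

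Described in each mouse or by range were mt-Nd6, both rRNAs, the extreme mRNAs of a comparison and genes of small unadjusted p, with mt-Co1 as the most abundant. Other genes are in the plot. Of each nuclear list, up to 3 genes of smallest p and Polrmt, Tfam and Lrpprc could be named. The members and lists were chosen with earlier results of these data known.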

Additional observations from a re-analysis of the deposited data

Results flagged for a closer look

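Within a dose, 1 mouse stood apart from its group by Dixon's criterion in 9 of 72 groups (18 quantities at 4 doses). The criterion flags about 1 in 20 groups of independent, normally distributed values. These quantities were chosen with the data known and come from the same mice, so the 9 of 72 cannot be set against that rate. mt-Co1 took 40.1% of the mitochondrial reads in 5 mg/kg replicate 3, against 41.5% in the next mouse of that dose, and the same mouse had 1039 CPM of mt-Rnr1, against 597 CPM in the next. In 50 mg/kg replicate 2, mt-Rnr2 had 3082 CPM, against 1743 CPM in the next mouse, and mt-Atp6 had 469 CPM, against 228 CPM. In 0 mg/kg replicate 5, the single control of the run from 619, mt-Atp6 had 669 CPM, against 189 CPM in the next control, and mt-Nd4l 52.8 CPM, against 16.1 CPM. mt-Nd4l also stood apart in 5 mg/kg replicate 2 with 49.5 CPM, against 24.6 CPM, and in 50 mg/kg replicate 3 with 151 CPM, against 16.4 CPM. mt-Tt (threonine tRNA) had 7.53 CPM in 50 mg/kg replicate 7, against 3.83 CPM. Of the 9 values, 5 belong to mt-Atp6 and mt-Nd4l, which lie inside the span of the nuclear copy. mt-Co2, mt-Co3, mt-Nd3, mt-Tg and mt-Tr lie wholly inside it too, and no mouse stood apart for them. mt-Ts1 and mt-Atp8 also lie wholly inside it but were not among the 18 quantities. Without TMM scaling, mt-Ts1 had 391.5 CPM in 5 mg/kg replicate 2, against 57.8 CPM in the next mouse of that dose, replicate 3.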

How the results depend on the processing

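Mitochondrial genes called were counted in each comparison under those of 15 other settings that applied to it, and with each mouse left out in turn. All 65 counts of the first kind and all 146 of the second were 0, as in the report. A single fit gave the counts of several comparisons, so there were fewer fits than counts. The settings with an adjusted p of 0.10 reuse the main fit with another threshold, so their log2 fold changes cannot differ from it. The difference in mitochondrial share moved in the run from 619 alone, with its single control, to -2.86 points at 50, -3.99 at 5 and -4.26 at 0.5 against 0 mg/kg, and in the run from 601 alone to 0.462 points at 5 against 0 mg/kg. Leaving out 1 mouse gave -0.891 to -0.0177, -1.24 to -0.368 and -0.864 to 0.728 points in the same 3 comparisons. Of 400 log2 fold changes under other settings 19 reversed, and of 848 without 1 mouse 20 did. At 50 against 0 mg/kg mt-Co1 had -0.0047 with at least 10 reads in every library, -0.040 with total counts, -0.036 without a run term, -0.48 in the run from 619, -0.069 with only both groups in the fit and -0.012 without 0.5 mg/kg replicates 1 and 2. In the run from 619 alone mt-Rnr1 had -0.64, mt-Rnr2 -0.98, mt-Nd4l -2.33 and Polrmt 0.20, in the run from 601 alone mt-Nd6 0.061 and mt-Atp6 0.67, and Lrpprc had -0.032 with total counts. At 5 against 0 mg/kg mt-Co1 had 0.20 in the run from 601. At 0.5 against 0 mg/kg the run from 619 gave -0.73 for mt-Co1, -0.31 for mt-Rnr1 and -0.92 for mt-Co2, and leaving out 0.5 mg/kg replicates 1 and 2 gave -0.075 for mt-Co1 and -0.080 for mt-Co2. Leaving out each mouse in turn gave, at 50 against 0 mg/kg, -0.061 to 0.28 for mt-Co1, -0.21 to 0.29 for mt-Nd6, -0.042 to 0.53 for mt-Rnr1, -0.14 to 0.63 for mt-Rnr2, -1.13 to 1.07 for mt-Atp6, -0.90 to 1.71 for mt-Nd4l, -0.16 to 0.0046 for Polrmt and -0.048 to 0.077 for Lrpprc. At 5 against 0 mg/kg it gave -0.17 to 0.18 for mt-Co1 and -0.71 to 0.031 for mt-Rnr2. The cause was not tested. The values of mt-Tl2 were negative in every fit with 0 mg/kg. No paired analysis was possible because the replicate numbers only name mice and no mouse number occurs at more than 1 dose. A plus-strand tRNA such as mt-Tr, with 203 reads in 26 libraries, has too few reads for a precise value.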
